A study of Homo sapiens with 6 samples.

Results

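The S phase and replication genes described here are 38 genes that cells switch on to copy their DNA, taken as the rows of a count table of 11957 rows whose identifier equals a listed symbol. All 38 had a row. RNA came from OVCA433 cells, a long-established line grown from a human ovarian cancer, and was sequenced as 6 stranded poly(A) libraries, of which 3 carry the label U2AF2 SI and 3 the label U2AF2 SINC. The question is what lack of U2AF2, the large subunit of the factor that marks the 3′ splice site, does to gene expression. The labels give both groups a genotype by these names without expanding them, and name no further treatment, time or clone.

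No member was called different between the groups, and the members' levels were mostly close. Directions follow the labels as given, although U2AF2 itself was lower in the libraries labelled U2AF2 SINC. In libraries labelled U2AF2 SI the median member stood 1.12 times its level in those labelled U2AF2 SINC, and single members ranged from 0.849 to 1.48 times. The highest ratios belonged to DTL, UHRF1 and MCM4, and the lowest to GINS2 and RFC2. For 32 of the 38 genes the 95% interval lay wholly inside a change of 1 on the log2 scale in either direction. The intervals of the other 6 reached above 1, and 0 reached below -1.

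Replication begins when the origin recognition complex, CDC6 and CDT1 load the MCM2 to MCM7 ring onto DNA. CDC45 and the GINS complex then join the ring to form the active helicase, and polymerases held on by the PCNA clamp copy the strands from deoxynucleotides that ribonucleotide reductase and thymidylate synthase supply. Many of these genes are transcribed late in G1 by E2F factors, which cyclin E and its kinase help to release from the retinoblastoma protein, so their RNA is widely read as a mark of proliferating cells. The cyclin E gene CCNE1 is amplified in a subset of ovarian carcinomas.

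Library totals ran from 43333966 to 48976810 counts, with a biological coefficient of variation of 27.0%. Separate cultures are not mentioned in the labels. A p-value here thus sets the group difference only against the variation between these libraries, and that variation may be technical. The level of U2AF2 was 285, 345 and 373 CPM (the share of the TMM-adjusted library size, scaled to 1e6 counts) in replicates 1 to 3 labelled U2AF2 SI, against 252, 284 and 205 CPM in replicates 1 to 3 labelled U2AF2 SINC. The libraries labelled U2AF2 SINC thus had the lower mean (log2 difference 0.44 ± 0.19 SE, edgeR adjusted p = 0.653), with 1 of them just under the lowest of the other group. Whether the labels of the groups were exchanged cannot be told from these files; if they were, every direction given here would turn. In bulk RNA, fewer cells in S phase and less RNA per cell cannot be told apart. Of 9 epithelial and ovarian carcinoma markers, 2 had a row: KRT8 and KRT18 summed to 239 to 408 CPM in libraries labelled U2AF2 SI and 309 to 452 CPM in those labelled U2AF2 SINC. The other 7, among them EPCAM, PAX8 and MUC16, were not analysed here. Of 7 fibroblast markers 4 had a row, of 6 leukocyte markers 1, and of 4 endothelial markers 0. The fibroblast markers summed to 65.1 to 83.9 CPM in libraries labelled U2AF2 SI and 48.6 to 70.3 CPM in the others, with COL3A1 at 36.1 to 72.9 CPM over the 6, and their part in the results below was not tested.

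The members differed far more from each other than between groups. Per kilobase of transcript, the scale on which genes can be compared, PCNA was highest at 152 CPM per kb over the 6 libraries, followed by MCM7 at 138 and RRM2 at 121 CPM per kb. TYMS followed at 97.9 and RFC2 at 85.4 CPM per kb. At the other end stood CCNE2 at 1.32, POLA1 at 1.54, CLSPN at 2.25 and HELLS at 2.94 CPM per kb. Each length is that of the gene's longest coding transcript in GENCODE release 29, so a gene that uses a shorter form would be set too low.

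**Figure D1:**
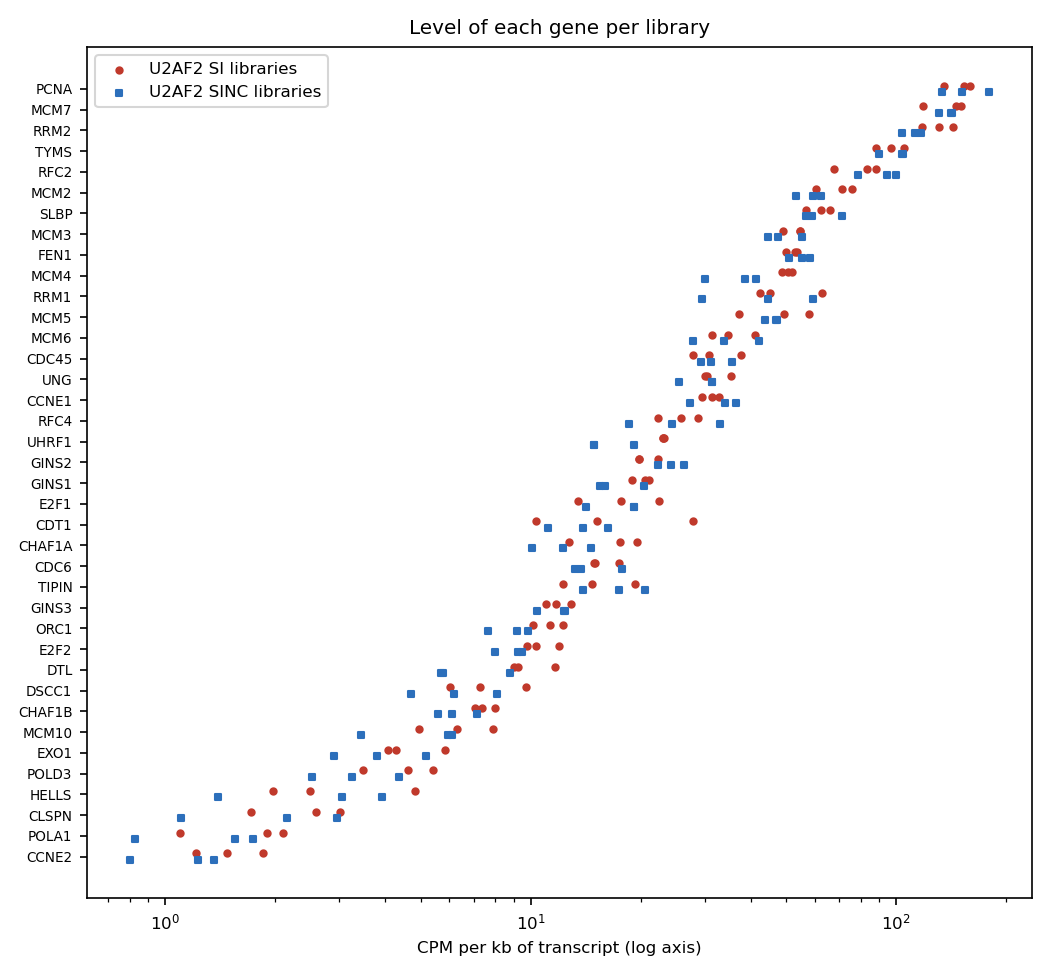
Level of each of the 38 genes in every library, in CPM per kb of transcript on a log axis, ordered by the mean of the libraries labelled U2AF2 SI. Red circles are libraries labelled U2AF2 SI and blue squares those labelled U2AF2 SINC; PCNA and CCNE2 stand at the ends, and the symbols of a gene lie close together beside the distance between genes.

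The promoters of these genes are shown because many of them, though not all, hold a word of the E2F site. The members were listed as S phase genes, many of which E2F factors transcribe, so the share with such a word is not independent of the choice. Promoters of 300 bases, from 250 before to 50 after the gene start, were matched in RefSeq (GRCh38.p14) for 33 of the 38 members. They were searched on both strands for 4 forms of the E2F site, TTTCCCGC, TTTCGCGC, TTTGCCGC and TTTGGCGC, with overlapping matches on opposite strands counted separately. Of the 33 promoters, 19 held at least 1 such word, or 57.6%, against 5.75% of 9259 promoters of genes with a row and 3.31% of all 35116 promoters. A CCAAT word, the binding sequence of NF-Y, was in 63.6% of member promoters and 37.1% of promoters of genes with a row. In the 19 matched promoters of a list of G2 and mitosis genes the shares were 10.5% for the E2F words and 89.5% for CCAAT. In the 61 matched promoters of a wider list of replication genes that are no members they were 24.6% and 50.8%. A match is a description of the letters and not a binding site.

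The 100 bases just before the start follow for 8 members with such a word, chosen among those highest per kilobase, those whose groups did not overlap, and CDT1 and E2F1, 5′ to 3′ on the gene's strand, with the E2F word or its reverse complement in capitals. They are UHRF1 (chr19:4909401-4909500, + strand), DTL (chr1:212035648-212035747, + strand), E2F2 (chr1:23531234-23531333, - strand), E2F1 (chr20:33686386-33686485, - strand), CDT1 (chr16:88803689-88803788, + strand), PCNA (chr20:5126623-5126722, - strand), TYMS (chr18:657553-657652, + strand) and MCM7 (chr7:100101398-100101497, - strand). The last, MCM6 (chr2:135876504-135876603, - strand, 160 to 61 bases before the start), held 4 words as 2 overlapping pairs.
UHRF1: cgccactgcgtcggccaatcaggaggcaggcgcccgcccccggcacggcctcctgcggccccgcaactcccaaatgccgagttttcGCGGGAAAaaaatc
DTL: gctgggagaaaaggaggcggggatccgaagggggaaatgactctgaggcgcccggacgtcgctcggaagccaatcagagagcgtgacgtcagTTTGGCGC
E2F2: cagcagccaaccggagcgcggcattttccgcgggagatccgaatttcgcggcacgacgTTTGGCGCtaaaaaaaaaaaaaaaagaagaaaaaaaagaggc
E2F1: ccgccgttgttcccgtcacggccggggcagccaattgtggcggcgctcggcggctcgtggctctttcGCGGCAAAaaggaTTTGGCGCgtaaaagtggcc
CDT1: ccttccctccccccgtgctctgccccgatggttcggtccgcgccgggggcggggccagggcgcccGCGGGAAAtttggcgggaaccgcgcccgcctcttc
PCNA: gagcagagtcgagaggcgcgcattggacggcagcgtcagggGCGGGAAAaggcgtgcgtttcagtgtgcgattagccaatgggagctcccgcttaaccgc
TYMS: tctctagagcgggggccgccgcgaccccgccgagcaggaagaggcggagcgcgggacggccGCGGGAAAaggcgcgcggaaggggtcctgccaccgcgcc
MCM7: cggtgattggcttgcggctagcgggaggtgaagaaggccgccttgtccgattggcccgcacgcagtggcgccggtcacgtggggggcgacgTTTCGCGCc
MCM6: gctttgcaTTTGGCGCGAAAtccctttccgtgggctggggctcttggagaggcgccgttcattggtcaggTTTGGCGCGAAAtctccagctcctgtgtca

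The groups were compared with edgeR's quasi-likelihood test over all 11957 rows, as U2AF2 SI minus U2AF2 SINC. It called 0 of 38 members at a Benjamini-Hochberg adjusted p under 0.05, where 0.00836% of all rows were called. The members' adjusted p ran from 0.653 to 0.999. At an unadjusted p under 0.05 there were 3 members, against 7.37% of all rows. UHRF1, MCM4 and DTL made up this 7.89% of the members, and all were higher under the label U2AF2 SI, as 3.15% of all rows were. In the other direction there were 0 members, against 4.22% of all rows. DESeq2 and limma-voom also called 0 members, each with 3 at an unadjusted p under 0.05, for which the share of all rows was not counted. DESeq2's independent filtering gave an adjusted p to 10 of the 38, and called 5.74% of all rows that had one. The log2 fold change was above 0 in 30 members, where 54.3% of all rows lay above 0, and its median was 0.16 against 0.04 over all rows. The groups did not overlap in 6 members, against 13.0% of all rows. All 6 were higher under the label U2AF2 SI, where 7.36% of all rows had no overlap in that direction and 5.68% in the other. For a single gene the 2-sided exact permutation test of 3 libraries against 3 cannot give a p under 0.1. The 6 members without overlap reached that value.

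**Figure D2:**
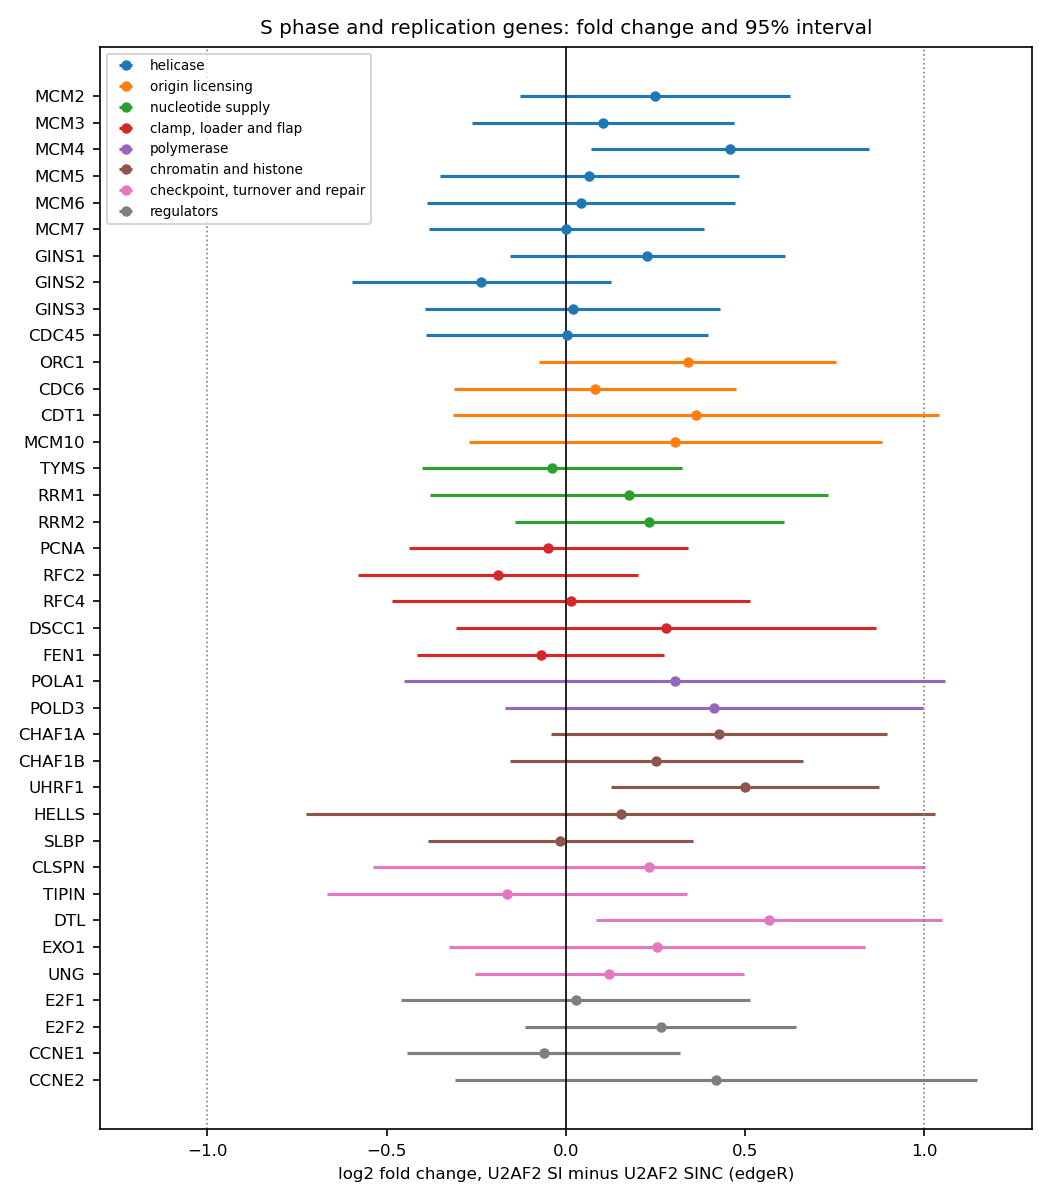
Log2 fold change of each member, U2AF2 SI minus U2AF2 SINC, from edgeR over 3 libraries a group, with bars for the 95% interval and colours for the role of the gene. Bars of UHRF1, MCM4 and DTL lie above 0 while all others cross it, and no bar reaches the dotted line at -1.

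Among the helicase genes, 9 of 10 lay above 0, with a median log2 fold change of 0.05. MCM4, a subunit of the ring, stood at 217, 212 and 204 CPM in the 3 libraries labelled U2AF2 SI, and 125, 162 and 173 CPM in the 3 labelled U2AF2 SINC. Each of the former was above each of the latter, and replicate 1 labelled U2AF2 SINC was the lowest (log2 fold change 0.46 ± 0.18 SE, 95% interval 0.07 to 0.85, edgeR adjusted p = 0.653). MCM2, which also binds histones at the fork, was at 218, 275 and 258 CPM against 214, 225 and 192 CPM. Its groups overlapped at the low end (log2 fold change 0.25 ± 0.17 SE, edgeR adjusted p = 0.732).

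MCM7 was the most abundant ring subunit, at 366, 449 and 465 CPM against 436, 438 and 405 CPM. Its group means were both 427 CPM, and the 95% interval of the log2 fold change, -0.38 to 0.38 was centred on 0.
MCM3, MCM5 and MCM6, the other ring subunits, had log2 fold changes of 0.10, 0.06 and 0.04, each with a standard error of 0.17 to 0.20. Since the ring holds each subunit once, their RNA levels can be set beside each other per kilobase. MCM7 ranged from 119 to 151 CPM per kb over the 6 libraries, above MCM2 at 53.1 to 75.8, and MCM2 overlapped with MCM3 at 44.5 to 55.4. MCM5 (37.1 to 57.7), MCM4 (30.0 to 51.8) and MCM6 (27.9 to 42.1 CPM per kb) overlapped with each other and could not be ordered beyond their spread.

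The GINS subunits GINS1, GINS2 and GINS3 and the helicase cofactor CDC45 differed in sign. GINS2 was at 52.9, 52.8 and 59.8 CPM in libraries labelled U2AF2 SI and 64.6, 70.5 and 59.8 CPM in the others, and the groups met at replicate 3 of each. At -0.24 ± 0.17 (SE) its log2 fold change was the lowest among the 38 (edgeR adjusted p = 0.734). GINS1 stood at 0.23 ± 0.18 (SE), while GINS3 and CDC45 lay at 0.02 and 0.0038. Per kilobase GINS2 and GINS1 overlapped (19.7 to 26.4 and 15.5 to 21.1 CPM per kb), with GINS3 below both at 10.4 to 12.9 CPM per kb.

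The 4 genes grouped under origin licensing, which include the helicase activator MCM10, all lay above 0, with a median log2 fold change of 0.32. ORC1, the largest subunit of the origin recognition complex, stood at 35.6, 32.1 and 38.6 CPM in libraries labelled U2AF2 SI and at 24.1, 28.9 and 31.1 CPM in those labelled U2AF2 SINC. The groups were apart by about 1 CPM at their nearest libraries (log2 fold change 0.34 ± 0.19 SE, edgeR adjusted p = 0.696). CDT1, the loading factor that is destroyed once S phase starts, was at 33.5, 90.1 and 49.2 CPM against 52.9, 45.2 and 36.2 CPM. Replicate 2 labelled U2AF2 SI was far above the other 5 libraries, and replicate 1 of the same group was the lowest. Without that high library the log2 fold change of CDT1 turned from 0.36 ± 0.31 (SE) to -0.10. CDC6, the loading ATPase, and MCM10, which helps to activate the helicase, had log2 fold changes of 0.08 ± 0.18 and 0.31 ± 0.26 (SE). MCM10 ran from 15.8 CPM in replicate 2 labelled U2AF2 SINC to 36.3 CPM in replicate 1 labelled U2AF2 SI.

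The nucleotide supply genes are TYMS, which makes thymidylate, and the 2 ribonucleotide reductase subunits RRM1 and RRM2. RRM2, the subunit whose level limits the enzyme through the cell cycle, was at 526, 432 and 481 CPM in libraries labelled U2AF2 SI and at 382, 429 and 413 CPM in the others. The groups did not overlap but came within a few CPM of each other at replicate 2 of each (log2 fold change 0.23 ± 0.17 SE, edgeR adjusted p = 0.745). RRM1, the catalytic subunit, stood at 193, 139 and 131 CPM against 90.5, 138 and 182 CPM. Replicate 1 was the highest library of the former group and the lowest of the latter, and leaving out either turned the log2 fold change of 0.18 to -0.03 or -0.05. TYMS was steadier, at 161, 146 and 175 CPM against 149, 172 and 173 CPM, with overlapping groups and a log2 fold change of -0.04 ± 0.17 (SE). In each library RRM2 was higher than RRM1 per kilobase, at 104 to 143 against 29.4 to 62.9 CPM per kb.

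Clamp, loader and flap genes had a median log2 fold change of -0.05, with 2 of 5 above 0. PCNA, the sliding clamp, was at 217, 184 and 209 CPM in libraries labelled U2AF2 SI and at 181, 244 and 206 CPM in those labelled U2AF2 SINC. The highest and the lowest library both carried the label U2AF2 SINC (log2 fold change -0.05 ± 0.18 SE). RFC2, a subunit of the clamp loader, was at 115, 149.7 and 141 CPM against 169, 159.6 and 134 CPM, with replicate 3 labelled U2AF2 SINC inside the range of the other group (log2 fold change -0.19 ± 0.18 SE, edgeR adjusted p = 0.798). FEN1, which trims the flaps of Okazaki fragments, moved least over the 6 libraries, its highest value being 1.16 times its lowest. RFC4, another loader subunit, differed by 0.01 ± 0.23 (SE) on the log2 scale. DSCC1, part of an alternative loader used in cohesion, was low at 22.5, 16.8 and 13.9 CPM against 10.9, 14.3 and 18.7 CPM, and its groups overlapped (0.28 ± 0.27 SE).

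Both polymerase genes were lowly expressed and varied between libraries of a group. POLD3, a subunit of polymerase delta, was at 20.7, 13.3 and 17.6 CPM against 12.4, 9.66 and 16.7 CPM (log2 fold change 0.41 ± 0.27 SE, edgeR adjusted p = 0.716). POLA1, the catalytic subunit of the priming polymerase, was at 10.4, 6.04 and 11.5 CPM against 9.53, 4.55 and 8.54 CPM (0.30 ± 0.34 SE). In both genes replicate 2 was the lowest library of its own group.

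Genes of chromatin and histone supply included the smallest p among the members. UHRF1, which brings the maintenance DNA methyltransferase to hemimethylated DNA, was at 100.1, 99.5 and 99.0 CPM in libraries labelled U2AF2 SI and at 64.4, 82.7 and 64.1 CPM in those labelled U2AF2 SINC. The former 3 were within about 1 CPM of each other and all above the latter (log2 fold change 0.50 ± 0.17 SE, 95% interval 0.13 to 0.87, unadjusted p = 0.0131, edgeR adjusted p = 0.653). Its unadjusted p was under 0.05 in 16 of 17 alternative settings, the exception being the omission of replicate 1 labelled U2AF2 SINC. Next came DTL with 14, MCM4 with 12 and CHAF1A with 4. These settings reuse the same libraries and are not independent support, and the share of all rows was not counted in them. DESeq2 gave UHRF1 no adjusted p, and in the other alternatives its adjusted p did not pass. CHAF1A, the large subunit of the histone chaperone CAF-1, was at 42.6, 65.4 and 58.6 CPM against 33.7, 41.1 and 49.0 CPM, with replicate 1 labelled U2AF2 SI inside the range of the other group (0.43 ± 0.21 SE, edgeR adjusted p = 0.686). CHAF1B, its partner, had a log2 fold change of 0.25 ± 0.19 (SE). SLBP, which binds the stem-loop of histone mRNA, lay at -0.02 ± 0.17 (SE). HELLS, a chromatin remodeller, had the widest spread of the 38, from 6.94 CPM in replicate 2 labelled U2AF2 SINC to 24.1 CPM in replicate 1 labelled U2AF2 SI, and a log2 fold change of 0.15 ± 0.40 (SE).

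Among checkpoint, turnover and repair genes, DTL had the highest log2 fold change of the members. DTL, the receptor through which a ubiquitin ligase destroys CDT1 at PCNA, was at 53.3, 41.3 and 42.3 CPM in libraries labelled U2AF2 SI and at 25.9, 26.4 and 40.2 CPM in the others. Replicate 3 labelled U2AF2 SINC lay just under the lowest library of the other group (0.57 ± 0.22 SE, 95% interval 0.08 to 1.05, edgeR adjusted p = 0.653). EXO1, a repair exonuclease, was at 20.2, 14.9 and 14.1 CPM against 13.2, 10.1 and 18.0 CPM, so that the groups overlapped (0.25 ± 0.26 SE). CLSPN, the mediator that activates the checkpoint kinase CHK1, was between 5.29 and 14.3 CPM, the lowest value in replicate 2 labelled U2AF2 SINC and the highest in replicate 1 labelled U2AF2 SI (0.23 ± 0.35 SE). TIPIN, its partner at the fork, and UNG, which removes uracil from DNA, had log2 fold changes of -0.16 ± 0.23 and 0.12 ± 0.17 (SE).

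Regulators of S phase entry had a median log2 fold change of 0.15, with 3 of 4 above 0. E2F2, an activating E2F factor, was at 50.9, 53.7 and 62.3 CPM in libraries labelled U2AF2 SI and at 49.3, 48.0 and 41.6 CPM in the others, without overlap (log2 fold change 0.27 ± 0.17 SE, edgeR adjusted p = 0.719). E2F1, its paralog, was at 33.7, 56.3 and 44.1 CPM against 48.1, 48.1 and 35.5 CPM, where replicate 1 labelled U2AF2 SI was the lowest of the 6 (0.03 ± 0.22 SE). The cyclin E genes differed most in level: CCNE1 stood at 27.3 to 36.4 CPM per kb and CCNE2 at 0.801 to 1.85 CPM per kb. CCNE2 was at 6.16, 4.04 and 4.91 CPM against 4.09, 2.67 and 4.55 CPM, with overlap (0.42 ± 0.33 SE), and CCNE1 had a log2 fold change of -0.06 ± 0.17 (SE). Whether the log2 fold changes of paralogs differ was not tested.

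**Figure D3:**
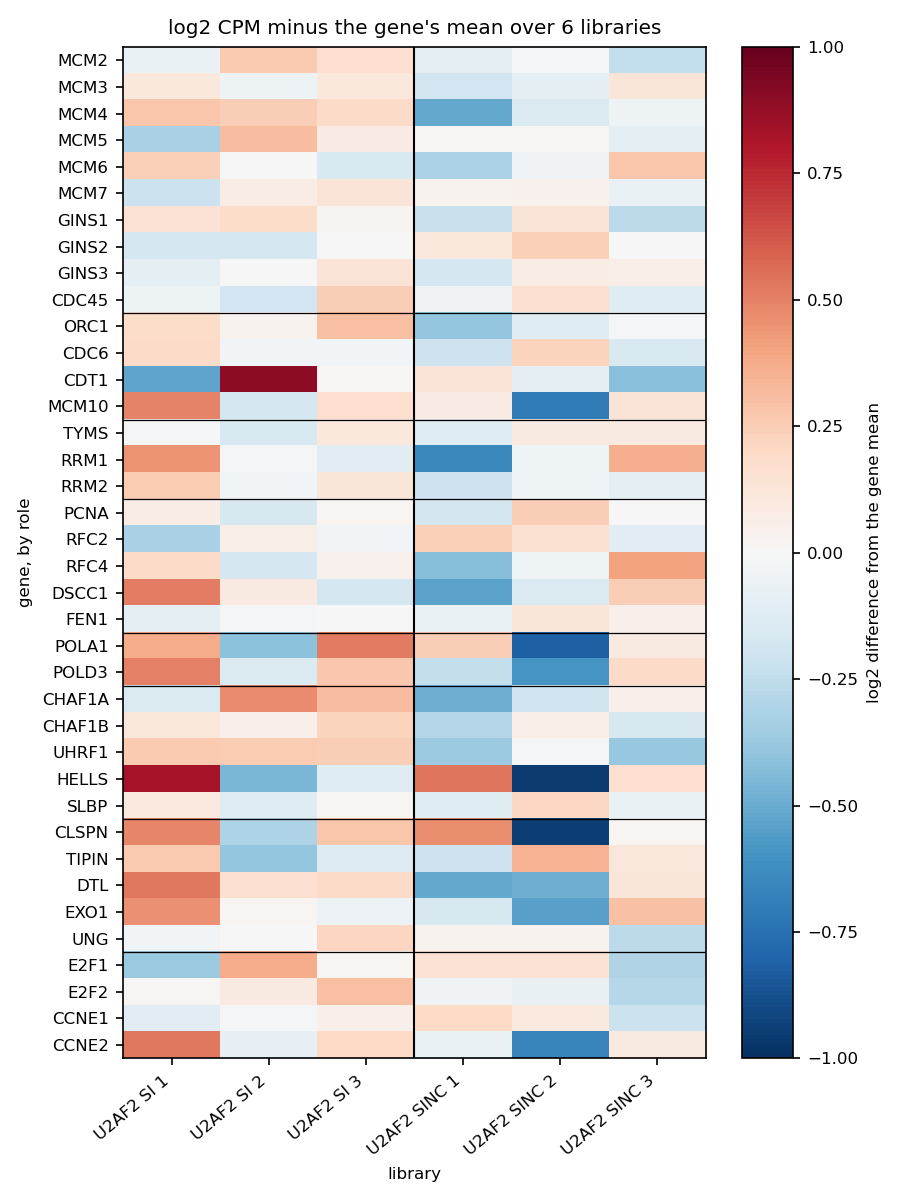
Difference of log2 CPM from the gene's own mean over the 6 libraries, for each member (rows, by role) and library (columns, 3 labelled U2AF2 SI left of the line and 3 labelled U2AF2 SINC right of it). HELLS, CLSPN and POLA1 are lowest in replicate 2 labelled U2AF2 SINC, and MCM4 and RRM1 in replicate 1 of that group.

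In no library did all members lie on the same side of their mean. Replicate 3 labelled U2AF2 SI was above the gene's mean in 30 of 38 members and the lowest library in 0, whereas replicate 1 labelled U2AF2 SINC was above the mean in 12 and the lowest in 14. Replicate 1 labelled U2AF2 SI was the highest library in 12 members and the lowest in 6. Median deviations from the gene mean were 0.13, -0.0087 and 0.11 on the log2 scale in replicates 1 to 3 labelled U2AF2 SI, against -0.14, -0.03 and 0.00033 under the label U2AF2 SINC. Over all rows these medians ran from -0.010 to 0.038. Without replicate 1 labelled U2AF2 SINC, 0 members had an unadjusted p under 0.05, and without replicate 3 of that group there were 5. The share of all rows at that threshold was not counted in these settings, so neither count is read as a trait of the members. Without replicate 1 labelled U2AF2 SI the median log2 fold change of the members was 0.08, and without replicate 2 labelled U2AF2 SINC it was 0.09.

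Transcript length and base composition moved with these values. Across the 38 members the log2 fold change was higher for longer transcripts with a Spearman rho of 0.68, and across 11327 rows with a length rho was 0.45. These are descriptions across genes that share the same 6 libraries. The 19 members with shorter transcripts (1359 to 3240 nt) had a median log2 fold change of 0.0038 and 11 above 0, and the 19 with longer ones (3249 to 5486 nt) a median of 0.25 and 19 above 0. The clamp and loader genes were short, with a median of 1695 nt, and UHRF1, MCM4 and DTL were long at 4309, 4183 and 4573 nt. In replicate 1 labelled U2AF2 SI the deviation from the gene mean ran against GC content with a rho of -0.84 over the members and -0.72 over all rows with a length. There the GC-rich CDT1 (64.9% GC) and E2F1 (62.5%) were lowest and the AT-rich HELLS (37.6%) highest.

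After the dependence on length and then on GC content was taken out of each library by loess, the median log2 fold change of the members was 0.08 and that of all rows -0.0096, and rho with length was 0.12. DTL stood at 0.41 ± 0.13 (SE), UHRF1 at 0.34 ± 0.14 (SE) and MCM4 at 0.27 ± 0.12 (SE). GINS2 stood at -0.32 ± 0.13 (SE), with an unadjusted p of 0.0321. Again 0 members were called, with edgeR adjusted p of 0.627 for DTL, UHRF1 and GINS2 and 0.651 for MCM4. At an unadjusted p under 0.05 there were then 2 members higher, DTL and UHRF1, and 1 lower, and the share of all rows was not counted.

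**Figure D4:**
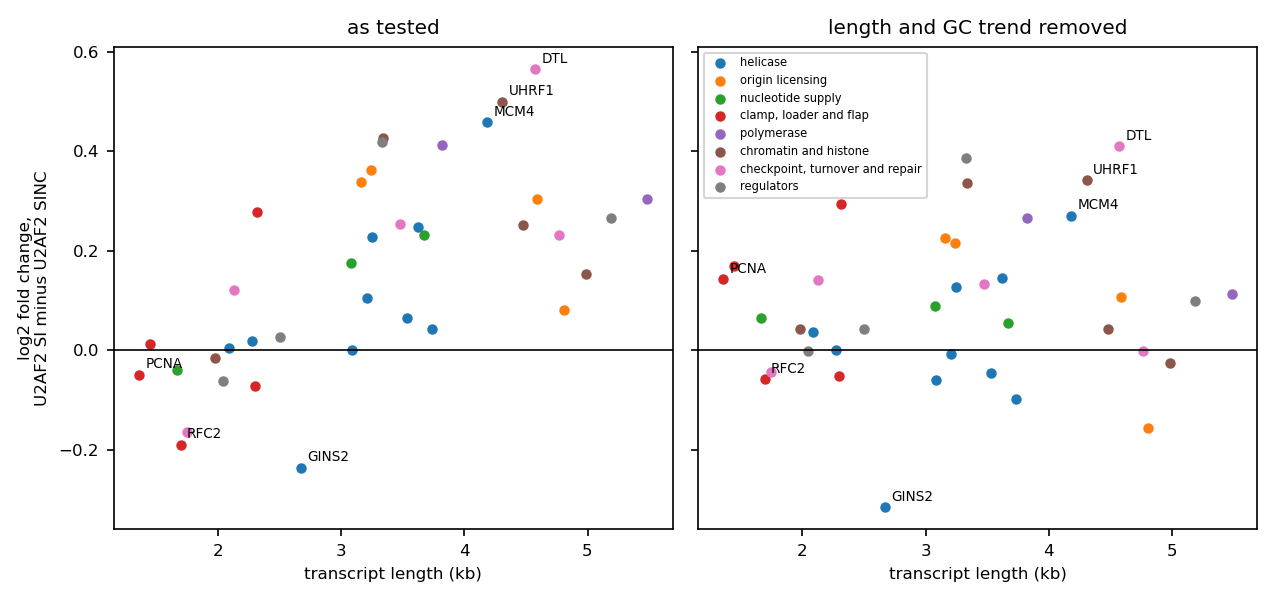
Log2 fold change of each member, U2AF2 SI minus U2AF2 SINC, against the length of its transcript in kb, as tested (left) and after the loess correction for both length and GC in each library (right). On the left the longer transcripts lie higher (rho 0.68), and on the right that slope is mostly gone (rho 0.12).

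A wider list of 73 replication genes that are no members, covering the remaining helicase, origin, polymerase, RPA, ligase, nucleotide and E2F family genes, also held 0 rows called by edgeR. Their median log2 fold change was 0.16, with 47 above 0 (64.4%, against 54.3% of all rows). At an unadjusted p under 0.05 edgeR had 4 of these genes, where 7.37% of all rows passed. They were 2 in each direction, against 3.15% of all rows higher and 4.22% lower, so this count is not read as a trait of the list. MCM9, a helicase of recombination, was at 3.69, 3.43 and 3.80 CPM under the label U2AF2 SI against 1.73, 2.67 and 1.68 CPM, without overlap (0.85 ± 0.35 SE, edgeR adjusted p = 0.653). CAD, which starts pyrimidine synthesis, had a log2 fold change of 0.36 ± 0.16 (SE). POLE4, a small subunit of polymerase epsilon, was at 57.1, 67.9 and 80.4 CPM against 127, 111 and 80.7 CPM, the groups meeting closely at replicate 3 of each (-0.63 ± 0.21 SE, edgeR adjusted p = 0.653). RPA3, the smallest subunit of the single-strand binding complex, stood at a log2 fold change of -0.59 ± 0.22 (SE) with overlapping groups. Transcripts of MCM9, CAD, POLE4 and RPA3 were 5101, 7265, 1248 and 2020 nt long. GINS4, the remaining GINS subunit, stood at 0.28 ± 0.18 (SE). Of 25 measured G2 and mitosis genes, 17 lay above 0 (68.0%, against 54.3% of all rows) with a median of 0.16, close to that of the members. Whether the lists differ was not tested.

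Some members share sequence or position with other genes, which limits their counts. In GENCODE release 29, exons of 16 members overlap those of another gene. For 8 of them a gene on the opposite strand has its own row, as ENOSF1 does for TYMS, AP4M1 for MCM7 and TPRA1 for MCM2. In 6 members an overlapping gene lies on the same strand, where strand cannot separate the reads. Of these genes, FADS2 at FEN1 and MORC3 at CHAF1B have their own rows. The libraries keep strand, but whether the counting used it is not given in the sources used here. Named pseudogenes exist for 5 members, TYMS, RRM2, PCNA, FEN1 and UNG, and 0 of them had a row, so reads that fit both may have been split or dropped. The lowest count of any member in any library was 108, so counting error was small beside the spread between libraries.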

How the data were processed

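RNA of OVCA433 cells was sequenced in 6 libraries after poly(A) selection and dUTP strand marking, per the labels' protocols. The submitters' processing notes list the tools CASAVA and StringTie. For the aligner, the build and the annotation, the entry is: not given in the sources used here. The authors deposited whole-number counts per gene or locus, used here as raw counts. The sample descriptions tie columns with the letter N to libraries labelled U2AF2 SI and those with S to U2AF2 SINC. The lowest row mean was 31 counts, so rows of lower counts were not analysed here.

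The test was edgeR 4.0.16 run under R 4.3.3 (TMM factors, filterByExpr, which kept all 11957 rows, glmQLFit and glmQLFTest, Benjamini-Hochberg over all rows, threshold 0.05). Standard errors come from the quasi-likelihood F. CPM use TMM-adjusted library sizes, and log2 values a prior count of 2. DESeq2 1.42.0, limma-voom (limma 3.58.1), other scalings, filters, a replicate block, each omission of a library, removal by loess (span 0.3) of the dependence on transcript length and GC, and the merging of 16 Ensembl rows with their symbol were alternatives. Members, lists and tests were chosen with earlier results of these data known. Values in every library are given for the 2 members of each role with the smallest p, the 4 highest per kilobase and those without overlap; other members named in full, such as GINS2 and E2F1, were chosen after their values were seen. Libraries of a group differed by a chi-square of 56.0 to 170 per degree of freedom, so none was the same library sequenced again. Whether they came from separate cultures cannot be told from that value. PCR reads are not independent molecules, so counting error is a lower limit.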

Additional observations from a re-analysis of the deposited data

How the results depend on the processing

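No member was called under any of the 17 alternatives, and 0 of the wider replication list, although DESeq2 gave only 10 of the 38 members an adjusted p. The smallest adjusted p of a member was 0.137, for MCM4 in DESeq2. Over all genes 1 row was called, against 0 with upper-quartile factors, library size alone, a mean of at least 5 CPM, merged Ensembl rows or the trend on length and GC removed (with or without the replicate block), 2 with the replicate block, 61 in DESeq2 and 0 to 2 without 1 library. At an unadjusted p under 0.05, 3 members were higher, against 9 with library size alone and 0 to 5 without 1 library, and 0 were lower, against 1 with the trend removed. The share of all rows at that threshold was not counted in the alternatives. With library size alone the median of all rows also rose, to 0.22 from 0.04, so the 9 are not read as a trait of the members. The median of the members, 0.16, was 0.36 with library size alone (0.22 over all rows), 0.078 with the trend removed and 0.078 to 0.21 without 1 library. The replicate block gave a median of 0.19 and 2 members higher. The labels do not say whether libraries of the same number are pairs. Correlations of same-numbered libraries, each taken from its group's mean, were -0.089, 0.25 and -0.31. They cannot decide this, because each library's dependence on length and GC also enters them. A mean of at least 5 CPM left out CCNE2.

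Signs turned in 19 members, most near 0 but also CDT1 (0.36 as tested), CLSPN (0.23), RRM1 (0.18), TIPIN (-0.16) and HELLS (0.15). The cause was not tested. With RLE factors MCM7 was at -0.015, CDC45 at -0.013 and RFC4 at -0.0033, the same values to that precision as in DESeq2. With upper-quartile factors MCM7 and CDC45 were at -0.014 and -0.0023, with the replicate block at -0.0055 and -0.0032, and in limma-voom at -0.0054 and -0.0040. A mean of at least 5 CPM put MCM7 at -0.0029. Library size alone put TYMS at 0.14, PCNA at 0.14, FEN1 at 0.11, SLBP at 0.17, TIPIN at 0.030 and CCNE1 at 0.13. With the trend removed MCM3 was at -0.0064, MCM5 at -0.047, MCM6 at -0.099, MCM7 at -0.059, CDC6 at -0.16, TYMS at 0.066, PCNA at 0.14, HELLS at -0.026, SLBP at 0.043 and CLSPN at -0.0016. With the replicate block and the trend removed MCM3 was at -0.0055, MCM5 at -0.055, MCM6 at -0.098, MCM7 at -0.061, GINS3 at -0.0011, CDC6 at -0.13, TYMS at 0.065, PCNA at 0.14, SLBP at 0.033 and CCNE1 at 0.0029. Without 1 library the ranges were -0.077 to 0.21 for MCM5, -0.091 to 0.21 for MCM6, -0.065 to 0.088 for MCM7, -0.059 to 0.060 for GINS3, -0.13 to 0.11 for CDC45, -0.0081 to 0.23 for CDC6, -0.10 to 0.62 for CDT1, -0.11 to 0.035 for TYMS, -0.050 to 0.44 for RRM1, -0.15 to 0.072 for PCNA, -0.17 to 0.25 for RFC4, -0.33 to 0.48 for HELLS, -0.080 to 0.090 for SLBP, -0.068 to 0.57 for CLSPN, -0.16 to 0.18 for E2F1 and -0.17 to 0.026 for CCNE1. The other 19 members kept their sign in every alternative that held them, which for CCNE2 leaves out the mean of at least 5 CPM.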
